A study of Mus musculus with 24 samples.

Results

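The protein part of the cytosolic ribosome was followed here through 79 genes of a table of 33272 mouse genes. They were taken by symbol (Rpl or Rps, a number and at most 1 letter a, x, y or l, plus Rplp0, Rplp1, Rplp2 and Rpsa) with protein_coding among their transcript types, leaving out the relative Rps27l and the kinases named Rps6k. Of 83 matching symbols, 3 had no protein_coding type and 1 was left out by name. The members comprised 41 other large-subunit genes, 29 small-subunit genes, 3 genes of the acidic stalk, Rpl5 and Rpl11 of the 5S particle, the ubiquitin fusion gene Rps27a, and 3 paralogs known for restricted expression (Rpl3l, Rpl10l, Rpl39l).

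The samples were 24 RNA-seq libraries of C57BL/6 mouse liver and kidney, 3 for each organ in each of 4 arms. Control mice had no treatment. The cisplatin arm received 20 mg/kg of cisplatin, a platinum drug that crosslinks DNA, into the peritoneum. The CBLB502 arm received 0.2 mg/kg of CBLB502, which derives from bacterial flagellin and activates TLR5, by the same route, and the combination arm received both agents at those doses, CBLB502 30 min before the drug. Treated organs were taken at 72 h, and the labels give neither a time for the controls nor an age. The labels do not tie each library to an animal of its own, and p-values then cover only how far these libraries scatter, part of which may be technical. Markers went with the organ labels, each organ on its own scale. The 11 hepatocyte genes summed to between 26700 and 151000 CPM (counts scaled to a common library total) in liver libraries and 2274 to 12900 CPM in kidney. The 10 proximal tubule genes summed to between 7744 and 32050 CPM in kidney but only 28.4 to 103.4 CPM in liver. The organs were thus set apart less widely by the hepatocyte genes.

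A ribosome is built from ribosomal RNA and a single copy of most ribosomal proteins, so cells make these proteins in matched amounts. Their messages carry a pyrimidine tract at the 5′ end, the terminal oligopyrimidine motif, through which the kinase mTORC1 and the binding protein Larp1 control translation. In liver and kidney the messages are abundant, and Rpl5 and Rpl11 outside the ribosome bind the p53 regulator Mdm2, which ties ribosome assembly to the response to DNA damage.

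Promoters from RefSeq (build GRCm38.p6) were matched by symbol for 59 of the 79 members; 20 had no entry. The windows below run from 40 bases before to 20 bases after the annotated start, on the strand of the gene. They show 5 members that were among the 6 with the largest called differences in at least 1 comparison of treated arms, picked after their values were seen. Rps26, Rps4x and Rpl28, which were not called between cisplatin and CBLB502 in liver, follow, and then Rps6, a main substrate of the mTORC1 pathway. Capitals mark the longest run of C or T near the start.
Rpl13a, chr7:45128726-45128785, minus strand: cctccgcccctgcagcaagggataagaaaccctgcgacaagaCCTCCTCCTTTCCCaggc
Rps3, chr7:99483690-99483749, minus strand: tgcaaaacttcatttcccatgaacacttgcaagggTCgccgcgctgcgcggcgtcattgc
Rpl5, chr5:107900488-107900547, plus strand: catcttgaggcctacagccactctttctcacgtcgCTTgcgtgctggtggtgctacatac
Rps27, chr3:90213629-90213688, minus strand: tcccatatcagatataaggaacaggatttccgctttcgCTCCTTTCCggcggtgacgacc
Rpl7a, chr2:26910767-26910826, plus strand: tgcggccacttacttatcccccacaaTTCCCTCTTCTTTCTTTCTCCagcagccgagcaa
Rps26, chr10:128626487-128626546, minus strand: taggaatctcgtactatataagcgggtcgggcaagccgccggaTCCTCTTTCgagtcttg
Rps4x, chrX:102189372-102189431, minus strand: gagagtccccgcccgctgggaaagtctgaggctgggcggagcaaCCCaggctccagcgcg
Rpl28, chr7:4792925-4792984, plus strand: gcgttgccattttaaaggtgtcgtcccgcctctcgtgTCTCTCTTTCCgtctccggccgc
Rps6, chr4:86857348-86857407, minus strand: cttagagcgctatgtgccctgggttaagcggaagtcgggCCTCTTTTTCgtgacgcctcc

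Long and short pyrimidine runs stood in both sets: 14 bases in Rpl13a, 21 in Rpl7a, 9 in Rps27, 3 in Rpl5 and 2 in Rps3 of the first, and 11 in Rpl28, 9 in Rps26 and 3 in Rps4x of the second. A C at the annotated start followed by 4 pyrimidines was found in 13 of the 59 members (22.0%) and in 3.01% of the 27025 genes with a promoter of the same 300 bases. The motif CGGAAGT, the core that ETS factors bind, was searched on both strands and stood in 20 members (33.9%) against 7.2% of all genes. It lies in the Rps6 window just ahead of the tract. TATAAA in the last 50 bases before the start, on the strand of the gene, was found in 0 of the 59 members and in 3.15% of all genes. Starts a few bases off in the annotation hide a tract, so these shares are counts of letters in a window.

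Control libraries stood apart from all treated libraries. Mitochondrial genes took 60.69% to 72.24% of counts in the 6 control libraries and 2.57% to 14.22% in the 18 treated ones. Chromosome MT was left out of all levels, and 7 pseudogenes of mitochondrial sequence on chromosome 1 were also left out of shares, after which 2.82 to 10.14 M counts (M, 1e6) remained per control library and 44.0 to 74.5 M per treated library. Comparisons among treated arms therefore come first. The part of this difference in any comparison with control was not tested.

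As a share of the remaining counts, the 79 genes took most in kidney after cisplatin and after the combination. In liver the shares were 2.07%, 1.36% and 1.77% in controls, 1.54%, 1.48% and 1.45% after CBLB502, 2.24%, 2.36% and 2.31% after cisplatin, and 1.58%, 1.44% and 1.5% after the combination. The cisplatin libraries lay above the other treated liver libraries without overlap, and CBLB502 and combination libraries overlapped. In kidney the shares were 3.21%, 2.87% and 2.96% in controls, 2.07%, 1.88% and 2.17% after CBLB502, 4.32%, 6.63% and 3.61% after cisplatin, and 4.41%, 4.52% and 4.19% after the combination. Here the combination libraries lay inside the wide range of the cisplatin libraries, and both groups lay above controls and CBLB502. The 7 pseudogenes weighed on controls: with only chromosome MT left out, the share was 0.509%, 0.482% and 0.481% in liver controls and 0.946%, 1.4% and 1.17% in kidney controls. CBLB502 libraries then had 1.42% to 1.5% in liver and 1.78% to 2.06% in kidney, so that controls lay below CBLB502 in both organs, where without the pseudogenes kidney controls lay above it. The order of the treated arms was alike on both scales. In tissue RNA, fewer cells of a type and less RNA per cell cannot be told apart.

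**Figure D1:**
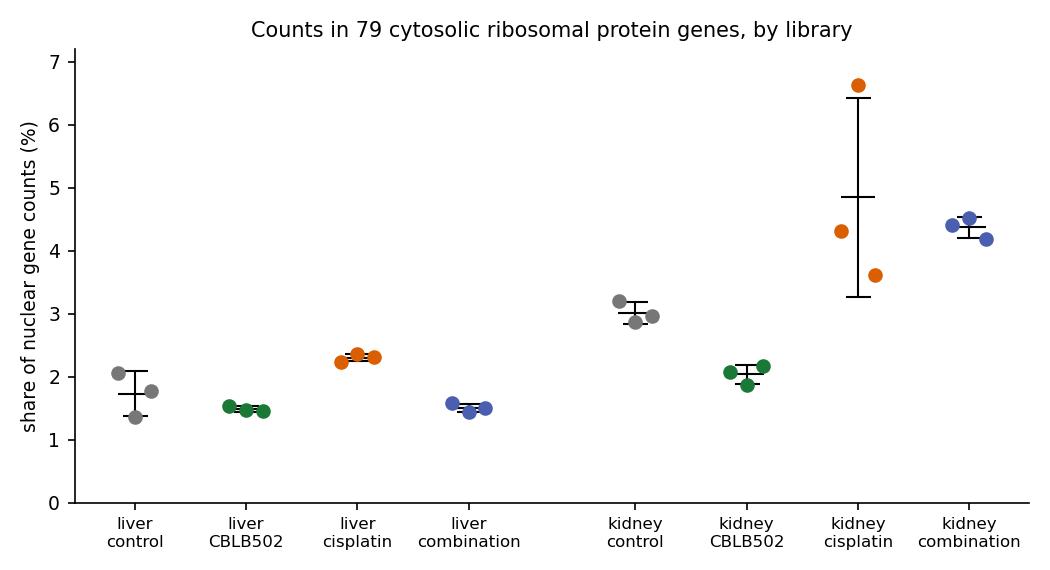
Share of counts outside chromosome MT and the 7 mitochondrial pseudogenes that fell in the 79 ribosomal protein genes (y axis, percent), with 1 point per library, and mean and SD (n = 3) as bars. Combination libraries sit at 1.44% to 1.58% in liver, level with CBLB502, and at 4.19% to 4.52% in kidney, level with cisplatin.

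Small-subunit genes, Rps27a and Rpsa included, took 34.7% to 36.5% of the members' counts in liver controls and 36.7% to 37.4% in kidney controls. In treated libraries of both organs they took 39.6% to 42.0%, above every control library. Named ribosomal protein pseudogenes, 237 in the table, amounted to 6.18% to 8.33% of the members' counts in treated libraries and 10.4% to 13.2% in controls. Since 57 members have such a pseudogene, reads shared between near-identical copies make single values of these members uncertain.

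Ranked by CPM per kilobase of annotated exons, Rplp1, which encodes a stalk protein that recruits elongation factors, was highest in both organs. Its mean over 12 libraries was 460 in liver (range 188 to 982) and 1031 in kidney (388 to 2648). Rps15 of the small subunit followed with 342 and 984, then Rpl19 with 291 and 759 and Rpl36 with 290 and 660 CPM per kilobase. The ranges of these neighbours overlapped widely in each organ. Among genes outside the restricted paralogs, Rpl21 was lowest in both, at 10.5 and 25.6 CPM per kilobase, next to Rps15a at 13.0 and 30.3. Exon lengths were those of all GENCODE vM21 transcripts joined (499 bases in Rplp1 and 6270 in Rps15a), so retained introns in the annotation lower such a value.

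In liver, cisplatin alone and CBLB502 alone differed across most of the ribosome. Of 77 members tested, 63 were higher after cisplatin (adjusted p under 0.05, edgeR quasi-likelihood test) and 0 were lower, where 7.48% of all 18283 genes were called higher and 4.65% lower. The median member was higher by 1.13 on the log2 scale, a 2.18-fold difference, and the median of all genes was -0.06. Those called were 33 of 41 large-subunit genes, 25 of 29 small-subunit genes, 2 of 3 stalk genes, both 5S genes and Rps27a. Levels were scaled by TMM (trimmed mean of M-values); with scaling by total counts, 26 members were called higher and 0 lower. Leaving out CBLB502 library 1, 2 or 3 left 40, 40 or 38 members called higher.

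Rpl13a, a large-subunit protein also known to silence inflammatory messages after leaving the ribosome, had the largest called difference in this comparison. Its level was 335, 295 and 295 CPM in liver controls, 236, 236 and 235 after CBLB502, 1193, 1106 and 1590 after cisplatin, and 301, 299 and 292 after the combination. All 3 cisplatin libraries lay far above the other 9. Cisplatin exceeded CBLB502 by 2.46 ± 0.21 (log2 fold change ± SE, adjusted p = 0.000226), a 5.5-fold ratio of means. A gene on the same strand, Gm45713, overlaps Rpl13a, and reads of both cannot be told apart.

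The 5S particle, which Rpl5 and Rpl11 form with 5S ribosomal RNA, followed the same order. Rpl5 stood at 108.5, 86.6 and 97.6 CPM in controls, 178, 179 and 165 after CBLB502, 741, 697 and 768 after cisplatin, and 262, 240.0 and 266 after the combination. Rpl11 stood at 117, 95.3 and 119 CPM in controls, 159, 167 and 158 after CBLB502, 442, 450.0 and 498 after cisplatin, and 206, 204.5 and 199 after the combination. In both genes the 3 treated arms did not overlap, with cisplatin highest, the combination next and CBLB502 lowest. Rpl5 rose by 2.08 ± 0.18 and Rpl11 by 1.53 ± 0.18 from CBLB502 to cisplatin (adjusted p = 0.000254 and 0.000789).

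Small-subunit genes held 3 of the 6 largest called differences. Rps14, whose loss on a single allele causes the anaemia of the 5q minus syndrome in people, was at 789, 711 and 561 CPM after cisplatin against 182, 163 and 161 after CBLB502, higher by 2.03 ± 0.22 (adjusted p = 0.000577). Rps3, which sits at the messenger entry site, was at 653, 642 and 666 CPM against 169, 162 and 161, higher by 1.99 ± 0.18 (adjusted p = 0.000254). Rps27 was at 345, 341 and 213 CPM against 76.1, 66.3 and 84.7, higher by 1.99 ± 0.25 (adjusted p = 0.00104). Cisplatin libraries 1 and 2 of Rps14 and Rps27 lay well above library 3, while the 3 libraries of Rps3 were close together. Rpl9 of the large subunit completed these 6 with 1.88 ± 0.21 (adjusted p = 0.000712).

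Rps19, the gene most often mutated in Diamond-Blackfan anaemia, was higher by 1.55 ± 0.21 (adjusted p = 0.00137), and Rpsa, which also encodes a laminin receptor, by 1.47 ± 0.23 (adjusted p = 0.00286). Rps6, the phosphorylation target of the S6 kinases, was higher by 1.27 ± 0.22 (adjusted p = 0.00451). Rpl3, which shapes the peptidyl transferase centre, was higher by 1.69 ± 0.24 (adjusted p = 0.00163), Rpl22 by 1.19 ± 0.22 (adjusted p = 0.00658) and Rpl39 of the exit tunnel by 1.47 ± 0.26 (adjusted p = 0.00575). Rpl10 of the large subunit was higher by 0.90 ± 0.24 (adjusted p = 0.0310).

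Liver cisplatin library 3 differed from libraries 1 and 2 in a way that depended on the gene. Rplp0, the stalk base, was at 751 and 786 CPM in libraries 1 and 2 and 361 in library 3, next to 349, 337 and 335 after the combination. Rplp2 was at 192 and 182 CPM in libraries 1 and 2 and 58.2 in library 3, which is inside the range of 31.3 to 82.9 of the other 9 libraries. Rplp0 and Rplp1 were still higher than after CBLB502 by 1.27 ± 0.29 and 1.09 ± 0.29 (adjusted p = 0.0169 and 0.0312), and Rplp2 did not pass the test (1.01 ± 0.39, adjusted p = 0.111). For Rpl13a, Rpl5, Rpl11 and Rpl22, library 3 was instead the highest of the 3. Mitochondrial genes took 5.7% of counts in library 3 against 2.57% and 2.94%, and the part of this in the split was not tested.

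Of the 77 members, 14 were not called between cisplatin and CBLB502 in liver. Rps26, a small-subunit protein at the messenger exit channel, was at 85.9, 86.3 and 83.8 CPM after CBLB502, 135, 134 and 86.9 after cisplatin, and 87.0, 90.2 and 89.7 after the combination. Libraries 1 and 2 were high and library 3 was level with the other arms, and the difference was 0.47 ± 0.19 (adjusted p = 0.129). Rps4x, encoded on the X chromosome, differed by 0.72 ± 0.27 (adjusted p = 0.106) and Rpl21 by 0.60 ± 0.28 (adjusted p = 0.196).

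**Figure D2:**
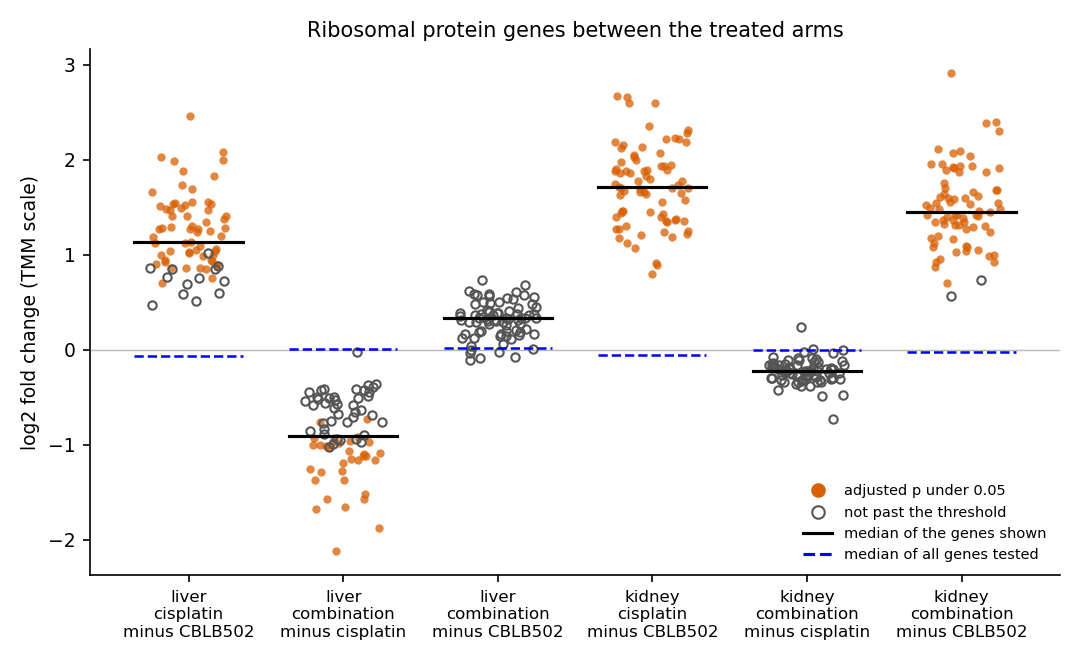
Log2 fold changes of the ribosomal protein genes outside the 3 restricted paralogs in 6 comparisons between treated arms, 1 point per gene, filled where the adjusted p was under 0.05. The median of the genes shown (solid line) lies at -0.91 for the liver combination against cisplatin and at -0.22 for the kidney combination against cisplatin, and the median of all genes tested (dashed) lies between -0.06 and 0.02 in each.

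Adding CBLB502 ahead of cisplatin went with lower ribosomal protein messages in liver. Of 77 members, 34 were lower in the combination than after cisplatin and 0 were higher, against 2.49% of all genes called lower and 0.957% higher, and the median member was lower by 0.90 where all genes had a median of 0.01. The largest falls were in Rpl13a (-2.12 ± 0.21, adjusted p = 0.00151), Rps3 (-1.87 ± 0.17, adjusted p = 0.00151), Rpl41 (-1.68 ± 0.24, adjusted p = 0.00811), Rps14 (-1.66 ± 0.21, adjusted p = 0.00578), Rps27a (-1.57 ± 0.32, adjusted p = 0.0267) and Rpl12 (-1.57 ± 0.19, adjusted p = 0.00527). Rpl41, the smallest ribosomal protein, was at 632, 545 and 506 CPM after cisplatin and 204, 169 and 153 after the combination, with no overlap. Rps27a, which is translated as a fusion with ubiquitin, was at 498, 477 and 312 CPM after cisplatin and 181, 122 and 131 after the combination. Rpl12, next to the stalk, was at 391, 375 and 283 CPM after cisplatin and 116.5, 114 and 123 after the combination, close to its 129, 123 and 125 after CBLB502.

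The 5S genes fell as well, Rpl5 by 1.52 ± 0.18 and Rpl11 by 1.19 ± 0.18 (adjusted p = 0.00527 and 0.00948). Rpsa, Rps19, Rpl3, Rpl22 and Rpl39 fell by 0.93 to 1.28, with adjusted p from 0.0214 to 0.0433. Rplp0, Rplp1, Rplp2, Rps6, Rps4x and Rpl10 had differences between -0.94 and -0.43 and did not pass the test. How many genes passed rested on single libraries: 71 were called lower without cisplatin library 3, 18 without cisplatin library 1, 16 without cisplatin library 2, and 2, 2 and 4 without combination library 1, 2 and 3. With total-count scaling 8 were called lower and 0 higher, 58 were lower by DESeq2, and 8 in a fit of these 6 libraries alone. The share of all genes called in each of these settings is not given here, so these counts have no background beside them.

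Against CBLB502 alone, no member was called in the liver combination, although 70 of 77 had a positive difference and the median was 0.33. After adjustment 2.78% of all genes were called higher and 3.71% lower. At an unadjusted p under 0.05 there were 13 members (16.9%), all higher, where 19.7% of all genes had such a p in either direction. DESeq2 called 8 members higher and 0 lower, against 5.62% of all genes higher. The fit of these 6 libraries alone called 43 of 76 higher and 0 lower, against 15.3% of all genes higher. Rpl3 with 0.68 ± 0.23, Rps6 with 0.56 ± 0.22 and Rpl5 with 0.55 ± 0.18 had adjusted p of 0.110, 0.158 and 0.0897. With total-count scaling the median difference was -0.01, and it was 0.30 above the median of all genes there.

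In kidney, both arms that contained cisplatin had higher ribosomal protein messages than CBLB502 alone. Of 78 members tested, 77 were higher after cisplatin than after CBLB502 and 0 were lower, against 17.8% of 20878 genes called higher and 9.83% lower, with a median of 1.71 (3.27-fold). The combination exceeded CBLB502 in 75 members with 0 lower, against 14.4% of all genes called higher and 8.75% lower, with a median of 1.45 (2.74-fold). These comparisons share their CBLB502 libraries. Total-count scaling called 73 and 71 members higher and 0 lower.

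Rps14 was at 238, 217 and 282 CPM in the CBLB502 kidney libraries, 1229, 2591 and 821 after cisplatin, and 1241, 1430 and 1171 after the combination. Controls were at 319, 257 and 266 CPM, so control and CBLB502 libraries overlapped and lay below all 6 libraries with cisplatin. Against CBLB502 it rose by 2.65 ± 0.35 after cisplatin (adjusted p = 0.000573) and by 2.38 ± 0.35 after the combination (adjusted p = 0.000725). Reads on the opposite strand from Ndst1 overlap this gene, and the strand setting of the counting is not given in the sources used here.

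Rpl13a was at 285, 240.2 and 338 CPM after CBLB502, 1435, 2814 and 969 after cisplatin, and 1534, 1647 and 1355 after the combination. It was 2.60 ± 0.33 higher after cisplatin and 2.39 ± 0.33 higher after the combination (adjusted p = 0.000526 and 0.000574). Rps27 rose by 2.59 ± 0.37 and 2.30 ± 0.36 (adjusted p = 0.000756 and 0.00115). Rpl17 had the largest rise of a broadly expressed member in both, 2.67 ± 0.56 and 2.91 ± 0.57 (adjusted p = 0.00506 and 0.00370), with wide scatter: 36.7, 39.5 and 47.2 CPM after CBLB502, 160, 541 and 86.2 after cisplatin, and 169.5, 362 and 396 after the combination. Rpl7a rose by 2.35 ± 0.21 after cisplatin (adjusted p = 0.000336), and Rpl9 by 2.11 ± 0.31 after the combination (adjusted p = 0.000803).

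Genes of the 5S particle and the stalk moved with them. Rpl5 was at 315, 292 and 350.4 CPM after CBLB502, 1161, 1601 and 703 after cisplatin, and 869, 968 and 932 after the combination, with rises of 1.86 ± 0.25 and 1.53 ± 0.25 (adjusted p = 0.000598 and 0.00127). Rpl11 rose by 2.21 ± 0.28 and 2.04 ± 0.28 (adjusted p = 0.000525 and 0.000574). All 3 stalk genes were called in both comparisons, and Rplp0 was at 467, 422 and 513 CPM after CBLB502, 1640, 1881 and 1025 after cisplatin, and 1330, 1176 and 1237 after the combination. Its rises were 1.70 ± 0.21 and 1.42 ± 0.21 (adjusted p = 0.000510 and 0.000861).

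Outside the restricted paralogs, Rps4x and Rps26 had the smallest kidney differences in both comparisons with CBLB502, and Rpl21 came next for the combination. Rps4x was at 259.5, 241.5 and 278 CPM after CBLB502, 445, 571 and 334 after cisplatin, and 403, 347 and 402 after the combination. It was higher by 0.79 ± 0.19 after cisplatin (adjusted p = 0.0106) and not called after the combination (0.57 ± 0.19, adjusted p = 0.0526). Rpl21 was at 35.4, 28.2 and 49.1 CPM after CBLB502, 61.9, 121.9 and 53.0 after cisplatin, and 66.3, 59.1 and 62.0 after the combination, higher by 1.07 ± 0.29 after cisplatin (adjusted p = 0.0189) and not called after the combination (0.73, adjusted p = 0.0903). Rps26 rose by 0.89 ± 0.18 after cisplatin (adjusted p = 0.00487).

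Between combination and cisplatin in kidney, 0 members were called in either direction, where 1 of 20878 genes was (0.00479% higher and 0.0% lower). A single member, Rpl27a, had an unadjusted p under 0.05 (-0.73 ± 0.32, adjusted p = 0.365), where 12.7% of all genes had one, and DESeq2 also called 0 members. The median member differed by -0.22. Cisplatin libraries 4, 5 and 6 were far apart here, with 45080, 68020 and 29870 CPM summed over the 79 genes, and the combination had a mean of 40430 ± 1235 CPM (SD, n = 3). Without cisplatin library 6, 21 members were called lower in the combination.

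**Figure D3:**
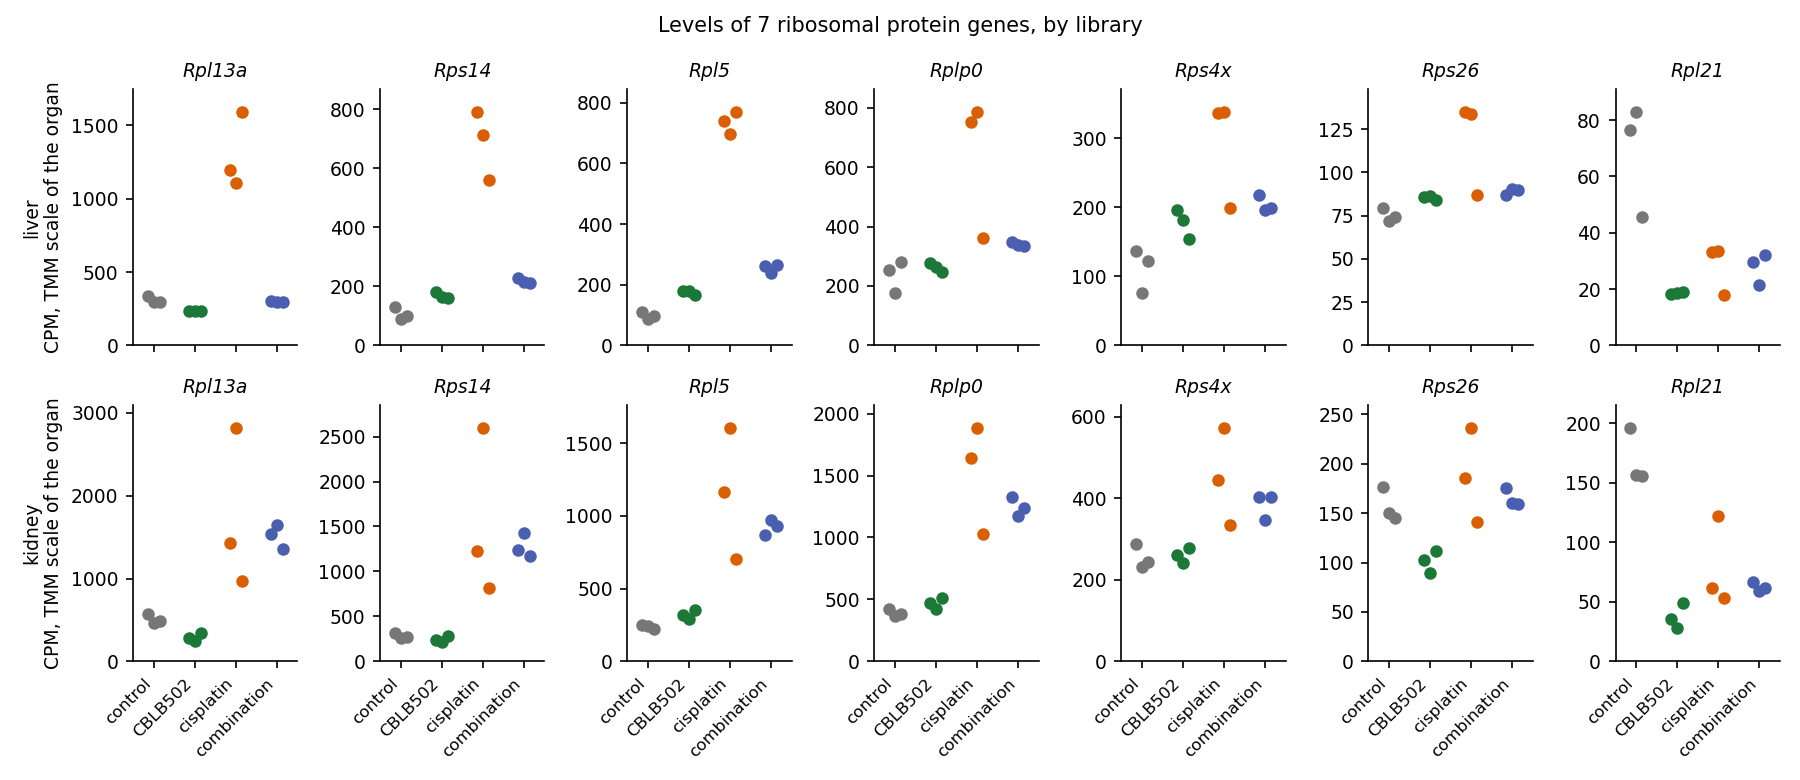
Level of 7 ribosomal protein genes in each library (CPM on the TMM scale of each organ, upper row liver and lower row kidney, linear axes from 0), with 1 point per library and the 4 arms along the x axis. Liver combination libraries sit near the CBLB502 libraries in Rpl13a and Rps14, kidney combination libraries sit within the cisplatin range, and Rpl21 is highest in controls of both organs.

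The order of the members was alike in both organs. Over the 76 members outside the restricted paralogs, log2 fold changes of cisplatin minus CBLB502 had a Pearson correlation of 0.79 and a Spearman correlation of 0.79 between liver and kidney. The organs share no library, but they share gene lengths, base composition and any reads mapped to near-identical copies, so this is a description over genes and not over samples. Of the 15 highest members in each organ, 8 were shared (Rpl13a, Rpl41, Rpl7a, Rpl9, Rps14, Rps16, Rps27, Rps3). Of the 15 lowest, 10 were shared (Rpl21, Rpl29, Rpl37, Rpl4, Rpl6, Rpl8, Rps26, Rps28, Rps29, Rps4x).

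**Figure D4:**
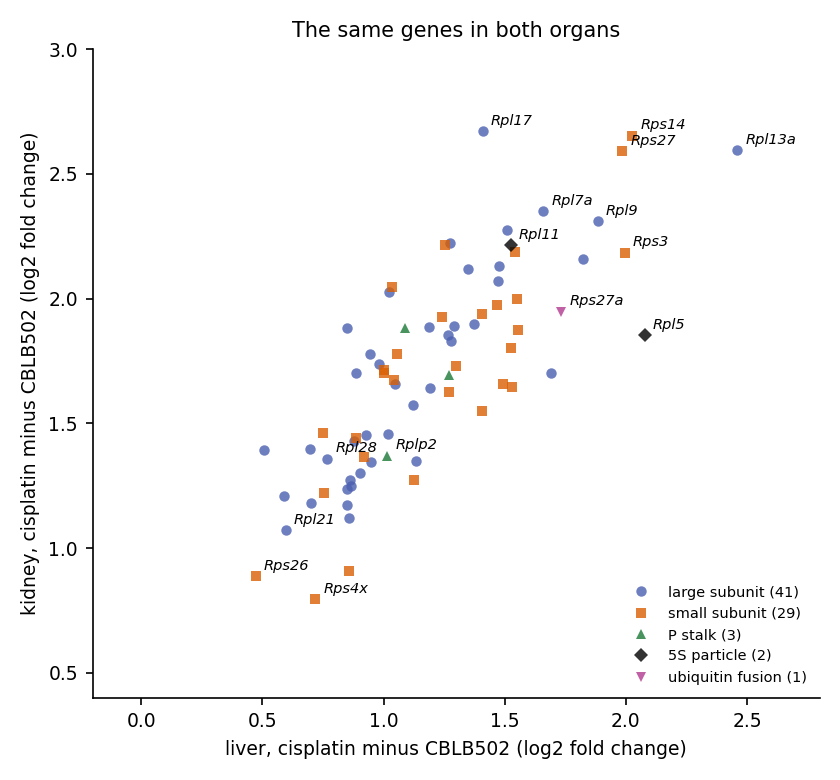
Log2 fold change of cisplatin minus CBLB502 in liver (x axis) and kidney (y axis) for 76 ribosomal protein genes, 1 point per gene, with colour and shape giving the role. Points rise together (Pearson 0.79), large- and small-subunit genes are mixed along the whole range, and Rps26 and Rps4x lie at the low end in both organs.

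Features of the genes were set beside how far they moved. The number of small nucleolar RNA genes inside a member (55 such genes in 29 members) had Spearman correlations of 0.06 and 0.09 with the cisplatin minus CBLB502 change in liver and kidney. The number of named pseudogenes gave 0.03 and 0.14, and the exon length gave 0.34 and 0.11. Members with the pyrimidine tract at the annotated start had medians of 1.02 in liver and 1.72 in kidney (13 genes), and members without it had 1.27 and 1.83 (43 genes). With CGGAAGT the medians were 1.26 and 1.73 (20 genes), and without it 1.22 and 1.83 (36 genes). None of these medians was compared by a test.

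Whether the effect of adding CBLB502 to cisplatin differed between organs was tested in a fit of all 24 libraries. The difference between the kidney and liver contrasts was positive for 75 of 78 members with a median of 0.69. It passed the test in 4 members and was called lower in 0, against 0.652% of 22239 genes called higher and 0.261% lower. These were Rpl13a (2.0 ± 0.38, adjusted p = 0.0182), Rps3 (1.72 ± 0.31, adjusted p = 0.0174), Rpl41 (1.54 ± 0.36, adjusted p = 0.0459) and Rpl5 (1.28 ± 0.29, adjusted p = 0.0411). At an unadjusted p under 0.05 there were 33 (42.3%), all positive, where 13.4% of all genes had such a p in either direction. The count was 24 without kidney cisplatin library 5 and 16 without liver cisplatin library 3. It was 0 without liver combination library 3, kidney cisplatin library 4 or kidney combination library 5. It was 2 without liver cisplatin library 1 or 2, liver combination library 1 or 2, or kidney combination library 4 or 6. DESeq2 called 17, against 3.4% of all genes higher.

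Kidney and liver were also set against each other within each arm, on the TMM scale of all 24 libraries. In the combination 47 of 78 members were higher in kidney and 0 lower, against 22.6% and 16.2% of all genes, with a median of 0.70. Controls had 7 higher and 1 lower (16.4% and 16.2% of all genes) with a median of 0.23, CBLB502 had 1 higher and 10 lower (15.9% and 13.2%) with a median of -0.41 that turned to 0.50 with total counts, and cisplatin had 2 higher and 0 lower (19.0% and 14.6%) with a median of 0.03. Total-count scaling moved the median of all genes by 0.69 to 1.12 in these comparisons. That median then stood at 0.72, 1.0, 1.2 and 0.95 in control, CBLB502, cisplatin and combination. In that order this scaling called 59, 29, 75 and 76 members higher and 0 lower. The share of all genes it called is not given here. In a fit of only the groups compared, 55 of 77 members were lower after CBLB502, against 25% of all genes, and with the 7 pseudogenes also left out 4 were, against 10.6%. The 10 lower after CBLB502 became 5 without liver CBLB502 library 2 or 3, 6 without kidney library 4 and 4 without kidney library 5. Relative to the median of all genes, the members' median was 0.19, -0.52, -0.05 and 0.55 on the TMM scale and 0.19, -0.51, -0.05 and 0.57 with total counts.

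Comparisons with control shared the 3 control libraries of each organ. In liver, 71 members were higher and 1 lower after cisplatin (25.3% and 17.1% of all genes), 27 higher and 5 lower after CBLB502 (18.1% and 8.96%), and 51 higher and 2 lower after the combination (23.6% and 16.1%). Medians were 1.67, 0.46 and 0.83, the last pair turning to -0.16 and -0.14 with total counts. The 27 after CBLB502 became 15, 16 and 15 without control library 2, control library 3 and CBLB502 library 1, and 12 with RLE (relative log expression) scaling. With total-count scaling the same comparisons gave 28 higher and 9 lower, 1 higher and 10 lower, and 1 higher and 15 lower, since that scaling lowered the median of all genes by 1.21, 0.60 and 0.94. Above the median of all genes, the members' median was 1.61, 0.33 and 0.72 on the TMM scale and 1.54, 0.31 and 0.69 with total counts.

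Kidney gave 69 higher and 2 lower after cisplatin (23.7% and 15.3% of all genes), 1 higher and 13 lower after CBLB502 (11.4% and 7.78%), and 65 higher and 2 lower after the combination (21.2% and 15.1%). Medians were 1.44, -0.30 and 1.18. Calls lower after CBLB502 included Rpl10l (-7.87), which had only 5 to 9 reads per control library and 0 after CBLB502. The lowest member value was -7.87 in each of these comparisons. The 13 lower after CBLB502 became 5, 6, 5 and 5 without control library 1, control library 3, CBLB502 library 4 and CBLB502 library 5. Total-count scaling gave 43 higher and 5 lower, 1 higher and 31 lower, and 33 higher and 6 lower. Relative to the median of all genes the members stood at 1.40, -0.33 and 1.14 on the TMM scale and at 1.35, -0.34 and 1.15 with total counts.

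**Figure D5:**
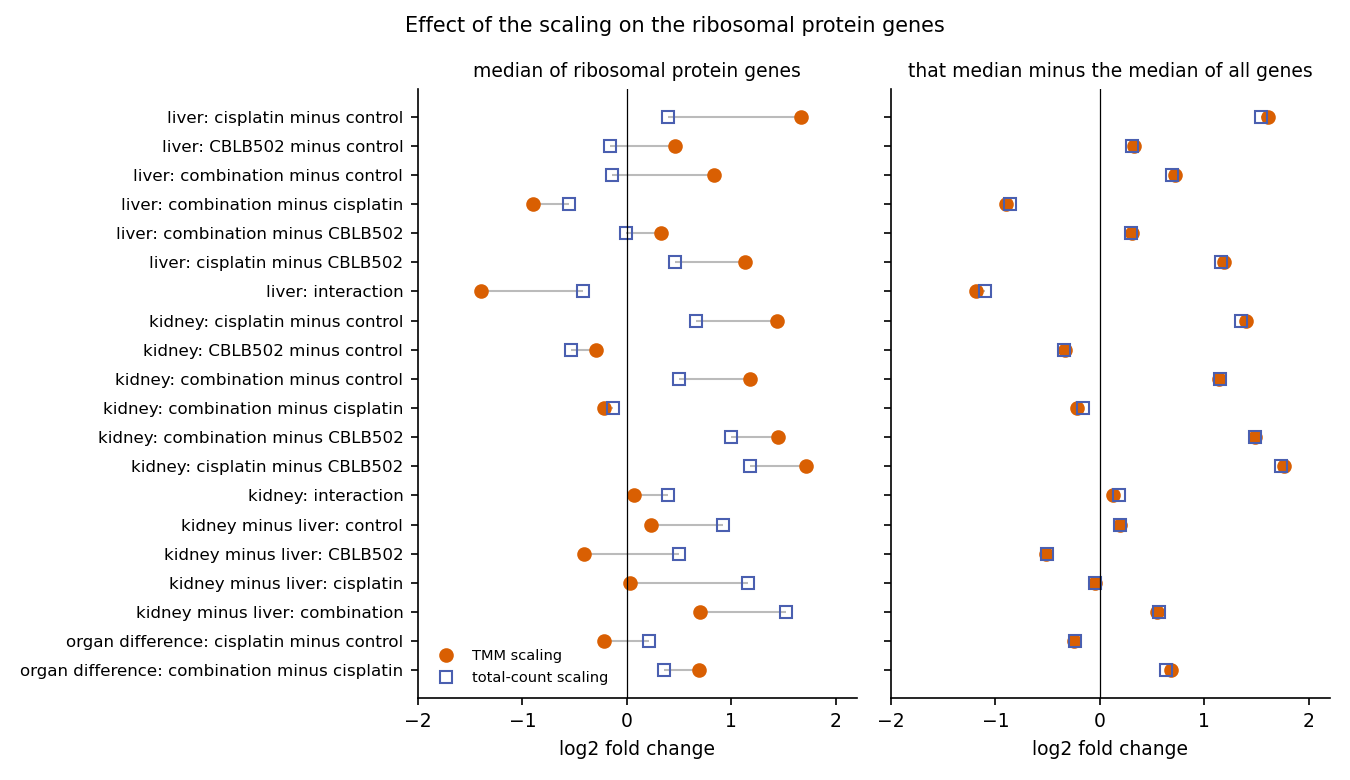
Median log2 fold change of the ribosomal protein genes in all 20 comparisons under TMM scaling (filled circles) and total-count scaling (open squares), as such on the left and after subtracting the median of all genes tested on the right. On the left the choices differ by up to 1.28, and 5 of the 20 medians change sign, those of CBLB502 and of the combination with control in liver among them; on the right they differ by at most 0.09.

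The interaction, the effect of the combination beyond the sum of both single agents, also rests on the controls. In liver it was called lower for 54 members and higher for 1, against 14.3% and 6.82% of all genes, with a median of -1.40. Total-count scaling gave 11 lower and 2 higher. In kidney it was called higher for 2 members and lower for 1, which is 2.56% and 1.28% of members against 2.29% and 5.29% of all genes, with a median of 0.07. The effect of cisplatin against control differed between organs for 2 members, both higher in kidney, against 7.58% of all genes called higher and 5.89% lower. No member was called lower there by edgeR, while 10 had an unadjusted p under 0.05 in that direction and DESeq2 called 6. That is 12 of 78 in either direction (15.4%) where 27.4% of all genes had such a p, and DESeq2 called 9.64% of all genes lower. Without kidney cisplatin library 5 there were 14, without liver cisplatin library 3 there were 5, and without liver control library 1 or 2 there were 2 and 1.

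Outside the restricted paralogs, Rpl7a and Rpl21 stood at the ends of the control comparisons in both organs. Rpl7a, a large-subunit protein, was at 15.5, 17.4 and 25 CPM in liver controls and 30.6, 37.0 and 44.6 in kidney controls. After cisplatin it was at 259, 178 and 201 in liver and 614.5, 550 and 384.5 in kidney, higher by 3.46 ± 0.28 and 3.79 ± 0.23 (adjusted p = 8.37e-06 and 5.59e-06). Rpl21 went the other way, with 76.5, 82.8 and 45.5 CPM in liver controls and 196, 157 and 155.5 in kidney controls, falling by 1.27 ± 0.29 in liver and 1.1 ± 0.29 in kidney after cisplatin (adjusted p = 0.00417 and 0.0113). Its fall after CBLB502 was larger, by 1.87 ± 0.29 and 2.17 ± 0.30 (adjusted p = 0.000846 and 0.000786). Rpl7a has 7 named pseudogenes and Rpl21 has 14, so reads shared with copies make both uncertain.

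Large-subunit genes formed most of the kidney falls after CBLB502. Rpl26, which binds the p53 message, was at 585, 488 and 486 CPM in kidney controls and 189, 160.0 and 211 after CBLB502, lower by 1.48 ± 0.23 (adjusted p = 0.00142). Rpl28 was at 629, 479 and 484.5 CPM in controls and 219, 197.5 and 279 after CBLB502, lower by 1.2 ± 0.21 (adjusted p = 0.00302). Rpl35 and Rpl38 were lower by 1.23 ± 0.25 and 1.04 ± 0.27 (adjusted p = 0.00633 and 0.0213). In liver Rpl26 also fell after CBLB502, by 0.64 ± 0.18 (adjusted p = 0.0188), and Rpl17, Rpl10a and Rpl35 fell by 0.84, 0.65 and 0.51 (adjusted p = 0.0405, 0.0207 and 0.0441).

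Among the restricted paralogs, only Rpl3l exceeded 11 reads in any library, and only in kidney. Rpl3l, the striated-muscle relative of Rpl3, had 0 to 11 reads per liver library. In kidney it had 27 to 46 reads in controls, 61 to 170 after CBLB502, 234 to 1134 after cisplatin and 504 to 735 after the combination. On the TMM scale kidney levels were 3.18, 2.23 and 3.34 CPM in controls, 1.38, 0.90 and 2.56 after CBLB502, 10.7, 18.2 and 2.91 after cisplatin, and 7.42, 10.5 and 8.53 after the combination. It was higher than after CBLB502 by 2.72 ± 0.58 after cisplatin and 2.45 ± 0.57 after the combination (adjusted p = 0.00564 and 0.00989), with cisplatin library 6 level with controls. Rpl10l, a retrogene of testis, had 5 to 9 reads in each kidney control library and 0 in all other libraries, and Rpl39l, another testis paralog, never exceeded 8 reads. Their broadly expressed counterparts Rpl10 and Rpl39 were called higher after cisplatin than after CBLB502 in both organs.

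Genes close to the members were counted in the same comparisons. Of 10 ribosomal protein genes and near relatives outside the symbol rule, 6 were higher after cisplatin than after CBLB502 in liver and 9 in kidney, with 0 lower in either. Of all genes, 7.48% were called higher in liver and 17.8% in kidney. Rps27l, a p53-inducible relative of Rps27, was higher by 1.94 ± 0.26 in liver and 2.50 ± 0.28 in kidney (adjusted p = 0.00145 and 0.000448). Fau, which encodes a ubiquitin-like fusion with a small-subunit protein, was higher by 1.34 ± 0.18 and 2.02 ± 0.26 (adjusted p = 0.00156 and 0.000559). Their medians were 1.02 and 1.53.

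Translation factors, many of them with pyrimidine tract messages, were called higher in 9 of 22 in liver and 17 of 22 in kidney, with 0 lower and medians of 0.64 and 0.98, against 7.48% and 17.8% of all genes higher. Eef1b2 of the elongation complex was higher by 1.44 ± 0.23 in liver (adjusted p = 0.00295), and Eif3k of the initiation complex by 0.87 ± 0.15 in liver and 1.5 ± 0.17 in kidney (adjusted p = 0.00502 and 0.000429). In the liver combination against cisplatin 3 of 22 were lower with a median of -0.13, against 2.49% of all genes lower. Proteins of the mitochondrial ribosome, which is built separately, were called higher in 20 of 78 genes in liver and 58 of 78 in kidney, with 0 lower and medians of 0.42 and 0.89. In the liver combination 10 of 78 were lower than after cisplatin, led by Mrpl41 (-1.65 ± 0.19, adjusted p = 0.00527).

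Ribosome assembly factors were counted beside the same shares over all genes, 7.48% higher and 4.65% lower in liver and 17.8% and 9.83% in kidney. Of 44 nucleolar factors and RNA polymerase I genes, 6 were higher and 3 lower after cisplatin than after CBLB502 in liver, with a median of -0.05, and 17 were higher and 0 lower in kidney, with a median of 0.65. Nop56 of the box C/D complex fell in liver by 1.25 ± 0.23 (adjusted p = 0.00597), while Nop16 and Nip7 rose by 1.01 ± 0.19 and 1.40 ± 0.26 (adjusted p = 0.00659 and 0.00745). Among 26 regulators of ribosomal protein synthesis, 5 rose and 1 fell in liver and 9 rose and 2 fell in kidney. Maf1, which represses RNA polymerase III, was higher by 2.10 ± 0.25 in liver and 1.45 ± 0.21 in kidney (adjusted p = 0.000805 and 0.000779). Sesn2, a p53 target that restrains mTORC1, was higher by 2.49 ± 0.34 and 1.67 ± 0.18 (adjusted p = 0.00156 and 0.000386). Myc, an activator of ribosomal protein genes that was picked after its values were seen, was higher by 4.27 ± 0.79 in kidney (adjusted p = 0.00249) and differed by -1.72 ± 0.63 in liver (adjusted p = 0.0973).

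Markers of other cell types differed between the same arms. In liver, 12 lymphocyte genes summed to 1.57 to 5.14 CPM after cisplatin and 23.6 to 38.2 after CBLB502, with Cd8a and Ms4a1 at 0 after cisplatin. Of these 12 genes, 9 were called lower after cisplatin, against 4.65% of all genes. Over 10 macrophage genes the sums were 52.9 to 187.1 CPM after cisplatin, 300.6 to 557.8 after CBLB502 and 32.0 to 50.3 after the combination. In the combination 2 of these 10 were called lower than after cisplatin, against 2.49% of all genes. The 8 neutrophil genes summed to 3.41 to 46.2 CPM after cisplatin and 0.350 to 0.823 after the combination, where Camp, Ly6g, Mmp9 and Ngp were at 0. Of the 5 tested, 3 were called lower in the combination, against the same 2.49% of all genes. The 10 endothelial and stromal genes summed to 30.0 to 39.0 CPM after cisplatin and 26.5 to 39.8 after the combination, and the 5 erythroid genes to 6.02 to 13.5 and 16.4 to 24.5. After CBLB502 these sums were 128.3 to 210.3 and 246.5 to 269.5 CPM, above both other treated arms without overlap. Hepatocyte genes summed to 78160 to 96010 CPM after CBLB502, below both other treated arms. They overlapped between cisplatin and the combination, with 101900 to 151000 and 103800 to 135400 CPM. Between these arms 0 of 11 were called, against 0.957% of all genes higher and 2.49% lower.

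In kidney, proximal tubule genes summed to 22730 to 32050 CPM after CBLB502, 7744 to 24330 after cisplatin and 18640 to 22100 after the combination. In each comparison with CBLB502, 1 of these 10 genes was called lower. That is near the shares of all genes called lower, 9.83% for cisplatin and 8.75% for the combination. The 6 distal nephron genes summed to 3880 to 5772, 1466 to 3685 and 1863 to 3260 CPM. Lymphocyte genes summed to 23.2 to 30.7, 1.46 to 10.1 and 4.30 to 5.11 CPM, endothelial and stromal genes to 231 to 352.5, 32.2 to 160 and 64.3 to 114.5 CPM, and macrophage genes to 81.2 to 135, 31.4 to 76.7 and 38.0 to 57.8 CPM. The 5 erythroid genes summed to 231.0 to 1010 CPM after CBLB502 and 1.46 to 9.45 in the other 2 treated arms, all 5 called lower in each. Hepatocyte genes summed to 3174 to 4926, 4836 to 6503 and 10660 to 12900 CPM, and neutrophil genes to 2.08 to 2.39, 1.79 to 35.3 and 0.53 to 2.42 CPM. The part of these cell types in the members' differences was not tested. Of the members, 22 overlap another gene of the table, Rpl3, Rpl5, Rpl12, Rps2, Rps14 and Rps27a among them, and their values are uncertain for that reason.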

How the data were processed

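The authors deposited raw counts and FPKM per library for 33272 Ensembl gene IDs, per the file headers. For trimming and quality control, cutadapt 1.9 and FastQC stand in the submitters' processing notes. Aligner, counter, strand setting and build are not given in the sources used here. Coordinates matched GENCODE vM21 (GRCm38) for 68 of the 79 members. Counts were used as deposited. The deposited FPKM values served only to compare gene lengths in 15 columns, and 9 columns of treated kidney FPKM, which the labels tie to no single sample, were not used. Treated kidney libraries carry column numbers 4 to 6.

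Without the 37 genes of chromosome MT, genes passing filterByExpr were tested with edgeR 4.0.16 in R 4.3.3 (TMM, quasi-likelihood test, Benjamini-Hochberg over all genes tested, threshold 0.05): 12 libraries per organ, or all 24 for organ differences. The exact permutation test of 3 against 3 libraries cannot go below 0.1 and was not used. The script was tested on simulated counts. No 2 libraries held identical counts. Members and lists were chosen with earlier results of these data known. Named were a set of fixed members and, per comparison, the 6 highest and 6 lowest called members without overlap, up to 3 called genes per other list, and members at the ends of the level per length. The genes in the promoter lines were chosen after their values were seen, as were Myc, Rpl27a and, between treated arms, Rps26 and Rpl21. The comparison of cisplatin with CBLB502 in each organ and total-count scaling (here also without the 7 pseudogenes) were added after seeing the data. Alternatives were other scalings (RLE, total counts), DESeq2 1.42.0, no filter, chromosome MT kept, the 7 pseudogenes out, a replicate block, only the groups compared and each library left out.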

Additional observations from a re-analysis of the deposited data

Results flagged for a closer look

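Tests of a difference between 2 effects passed for these members. In liver the interaction of both agents was called lower for 54 members and higher for 1, against 14.3% and 6.82% of all genes. Its ends were Rps27a (-3.21), Rpl7a (-2.96), Rps3 (-2.55), Rpl5 (-2.36), Rpl9 (-2.36) and Rps14 (-2.33), and Rpl21 (1.85) on the other side. In kidney it was called higher for 2 members, Rpl21 (1.84) and Rpl26 (1.29), and lower for 1, Rpl7a (-1.69), which is 2.56% and 1.28% of members against 2.29% and 5.29% of all genes, so neither share lies clearly above the background. Both interactions rest on the control libraries, and total-count scaling gave 11 lower and 2 higher in liver and 6 higher and 1 lower in kidney.

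Between organs, the effect of cisplatin against control was larger in kidney for 2 members, 2.56% against 7.58% of all genes and so under the background, Rpl3l (9.66) and Rpl10a (1.0). Rpl3l had 0 reads in all liver cisplatin libraries, so its fitted value is no bound. The effect of the combination against cisplatin was higher in kidney for 4 members, against 0.652% of all genes: Rpl13a (2.0), Rps3 (1.72), Rpl41 (1.54) and Rpl5 (1.28).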

How the results depend on the processing

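Shares over all genes and counts of called members were given without an error term. The p-values rest on the spread between libraries of the same group, estimated over all groups in a fit. Relative to the median of all genes, the members' medians moved by at most 0.09 between scalings, while counts of called members moved with the setting as follows. The counts that follow are given without the share of all genes called in the same setting.

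With total-count scaling, members called in the direction of the TMM median numbered 28 (71 with TMM), 1 (27) and 1 (51) for cisplatin, CBLB502 and combination minus control in liver, 8 (34) for combination minus cisplatin, 26 (63) for cisplatin minus CBLB502 and 11 (54) for the interaction. In kidney they numbered 43 (69), 31 lower (13) and 33 (65) against control and 6 (2) for the interaction. Kidney minus liver gave 59 (7), 0 lower (10), 75 (2) and 76 (47) in control, CBLB502, cisplatin and combination, and the organ difference of combination minus cisplatin gave 2 (4). The median changed sign in liver for CBLB502 and combination minus control (-0.16 and -0.14) and for kidney minus liver after CBLB502 (0.50), and where no member was called in its direction, for the liver combination minus CBLB502 (-0.01) and the organ difference of cisplatin minus control (0.21). The single members given next are examples of a changed sign, and other members changed sign too. Against control in liver they include Rpl11 after CBLB502 (-0.072). After the combination against control they include Rpl11 (-0.077), Rpl22 (-0.34), Rpl39 (-0.020), Rps4x (-0.10) and Rpsa (-0.050) in liver, and Rps4x in kidney (-0.084). For kidney minus liver after CBLB502 they include Rpl10 (0.071), Rpl22 (0.71), Rpl27a (0.10), Rpl3 (0.61), Rpl5 (0.87), Rplp0 (0.84), Rps19 (0.83), Rps26 (0.25) and Rps6 (0.18). After cisplatin they include Rpl10 (0.61), Rpl3 (0.74), Rpl5 (0.74), Rplp2 (1.1), Rps4x (0.78), Rps6 (0.67) and Rpsa (0.85). After the combination they include Rps4x (0.80) and Rps6 (0.79). The scaling itself sets these shifts.

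RLE scaling gave 12 and 31 higher for CBLB502 and combination minus control in liver and 2 for the organ difference of combination minus cisplatin. DESeq2 gave 58 lower for combination minus cisplatin and 8 higher for combination minus CBLB502 in liver, 22 lower for CBLB502 minus control and 4 higher for the interaction in kidney, 13 higher for kidney minus liver in control, and 6 lower and 17 higher for the organ differences of cisplatin minus control and combination minus cisplatin. Without the 7 pseudogenes kidney minus liver gave 13 higher in control and 4 lower after CBLB502. Without the filter the cisplatin arm gave 1 higher, and the organ difference of combination minus cisplatin gave 2. Fits of only the groups compared gave 8 lower and 43 higher for the liver combination against cisplatin and CBLB502, 31 lower for kidney CBLB502 minus control, and 55 lower and 1 higher for kidney minus liver after CBLB502 and cisplatin. The cause was not tested in these cases.

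Leaving out single libraries gave, in liver, 64 to 74, 15 to 22 and 35 to 49 members for cisplatin, CBLB502 and combination minus control, 2 to 71 for combination minus cisplatin, 0 to 0 for combination minus CBLB502, 38 to 76 for cisplatin minus CBLB502 and 45 to 67 for the interaction. In kidney the ranges were 61 to 74, 5 to 9 and 50 to 59 against control, 0 to 21 for combination minus cisplatin, 69 to 75 and 74 to 77 for combination and cisplatin minus CBLB502, and 0 to 9 for the interaction. Kidney minus liver gave 5 to 8, 4 to 8, 1 to 4 and 38 to 44 in the order of arms above, and the organ differences 0 to 14 and 0 to 24. Where a group kept 2 libraries the spread came from all groups.

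Same-numbered liver libraries correlated in their deviations by -0.17 to 0.17, over 0.1 in 5 of 18 pairs. Differently numbered libraries gave -0.19 to 0.19, over 0.1 in 7 of 36 pairs. Deviations from means of so few libraries cannot settle whether the numbers mark a shared block. With the replicate block the liver counts were 69, 23 and 49 higher against control, 26 lower for combination minus cisplatin, 0 for combination minus CBLB502, 56 higher for cisplatin minus CBLB502 and 50 lower for the interaction. No paired analysis was possible in kidney because its treated columns carry no replicate number of the labels.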
